A study of Homo sapiens with 6 samples.

Results

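Chromatin modifier and remodeller genes were described in a human cell line after knockdown of MOV10, an RNA helicase. They were chosen by symbol alone, as the table's genes whose names begin with SMARC, CHD, ARID, HDAC, KDM, JMJD, SETD, SUV, EZH, MLL, PHF or BRD, with a digit after CHD, HDAC, KDM, PHF and BRD, plus ING1 to ING5. This gave 84 of the 7682 genes in the table, and no KDM-named gene was among them. The cells were HEK293, a line derived from human embryonic kidney, either mock transfected or transfected with an siRNA against MOV10. Both kinds of cell were given 700 µM 4-thiouridine (4sU), a uridine analog that is built into RNA as it is made, for 60 min. The 6 samples were total RNA, the 4sU-labelled RNA bound to streptavidin beads, and the unlabelled flow-through, from mock and from siRNA cells. The question of the series, as far as its design states it, is how mRNA half-lives change when MOV10 is depleted.

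DNA is wrapped around histones, and these genes encode much of the machinery that reads and reshapes that packaging. Remodellers of the SWI/SNF (SMARC) and CHD families use ATP to slide or evict nucleosomes. Deacetylases remove acetyl groups from histones and other proteins, demethylases and methyltransferases remove and add methyl groups, and readers bind modified histone tails through bromodomains or PHD fingers. In HEK293, as in other dividing cells, such proteins are broadly expressed. Names are not proof of function: PHF5A is a splicing factor subunit, MLLT4 encodes afadin, a protein of cell junctions, and PHF2 and PHF8 carry the JmjC domain of demethylases although they are counted here by name as readers.

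The table gives 2 columns per group, header replicates 1 and 2, for each RNA fraction and for the half-life. Nothing in the labels says that these came from separate cultures, so p-values measure only the spread between columns. The unit of the expression values is not named and the depth is unknown, so levels are compared within a gene only. MOV10 total RNA was 13.1 and 14.6 (mock) against 3.53 and 3.64 (siRNA), so both columns labelled siRNA lay below both labelled mock. Of 22 markers of other cell types, 1 was in the table (HBA1), and of 12 markers of the embryonic kidney lineage, 6 were in the table and 1 had a mean total RNA of 5 or more. Over genes, the replicate columns of a group had Spearman correlations of 0.981 to 0.996.

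A minimum mean total RNA of 5 in both mock and siRNA left 72 of the 84 members and 6064 of all 7682 genes. By name the 72 were 16 remodellers, 6 deacetylases, 3 demethylases, 15 methyltransferases, 25 readers, 5 MLLT genes (fusion partners of MLL in leukaemia) and 2 other ARID proteins. Below the minimum lay ING2, ARID3A, HDAC11, JMJD7-PLA2G4B, SMARCAL1, EZH1, PHF15, ARID4A, PHF21A, SETDB2, HDAC4 and CHD9. HDAC1, HDAC3, SMARCC1, SMARCE1, ARID1A and ARID1B are not analysed here.

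In mock cells the chromatin mRNAs covered a wide range of stability, from SETD1B at 119 and 134 min in the 2 mock columns to HDAC6 at 2880.5 and 2563 min. The half-life is the time in which an mRNA falls to 50.0% of its level once synthesis stops. The median over the 72 members was 609 min, against 777 min over all 6064 genes. Of the members, 41 lay below the median of all genes, 24 (33.3%) lay in the shortest-lived 25% of all genes and 17 (23.6%) in the longest-lived 25%. Class medians were 1164 min for deacetylases, 978 min for remodellers, 512 min for methyltransferases, 498 min for demethylases and 466 min for readers. These are descriptions of genes chosen by name, with no test.

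**Figure D1:**
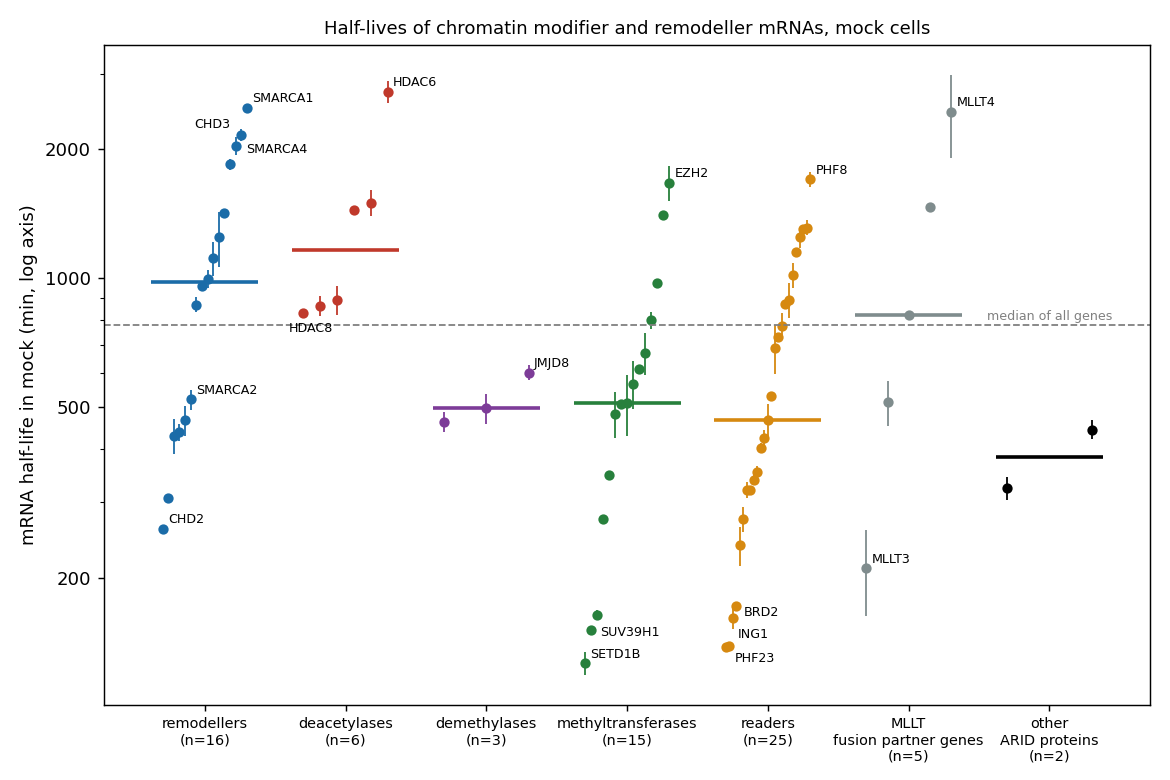
Mock half-life of each of 72 members (min, log axis) by class; points are means of 2 columns, vertical lines join the columns, and horizontal bars are class medians. No deacetylase lies below the dashed median of all genes (777 min), while the readers reach from PHF23 and ING1 near 138 min to PHF8 at 1703 min.

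Among the remodellers, SMARC genes were mostly long-lived and CHD genes mostly short-lived. The 9 SMARC genes had a median of 1245 min and 1 of them lay below the median of all genes. That median was the value of SMARCD3, whose labelled values in mock were low, 2.79 and 2.03, so it is uncertain. The 6 CHD genes had a median of 447 min and 4 lay below it. SMARCA1, an ISWI ATPase, had half-lives of 2490.4 and 2511 min in the 2 mock columns. Its labelled values in mock, 1.88 and 1.92, lay near the lowest value of any column, 1.00, so this half-life is uncertain. SMARCA4, the BRG1 ATPase of SWI/SNF, had 1944 and 2133 min, while its alternative ATPase SMARCA2 (BRM) had 493 and 549 min. The columns of these ATPases, which replace one another in the complex, did not overlap. Of the subunits that accompany these ATPases, SMARCC2 had 1793 and 1893 min, SMARCB1 had 1406 and 1441 min and SMARCD1 had 949 and 1043 min. ARID2, which marks the PBAF form of SWI/SNF, was shorter-lived at 418 and 457 min.

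The CHD genes ranged from CHD2 at the short end to CHD3 at the long end. CHD3 and CHD4, alternative ATPases of the NuRD deacetylase complex, had 2087 and 2224 min and 1012 and 1213 min. The labelled values of CHD3 in mock were low, 2.33 and 2.24, so its half-life is uncertain. CHD2 had 256 and 265 min and CHD6 304 and 310.5 min, the shortest of the remodellers past the expression minimum. CHD7, mutated in CHARGE syndrome, had 389 and 469 min, and CHD8 had 429 and 503 min.

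All 6 deacetylase mRNAs lay above the median of all genes. HDAC6, a cytoplasmic deacetylase that acts on tubulin, had 2880.5 and 2563 min, the longest mean of all members and longer than 98.8% of genes. Its labelled values in mock were 1.14 and 1.45, near the lowest value of any column, 1.00, so this half-life is uncertain. HDAC2, the class I enzyme of NuRD, SIN3 and CoREST complexes, had 1396 and 1603 min. HDAC8, another class I enzyme, had the shortest at 838 and 825 min. HDAC7 and HDAC5, class IIa enzymes, had 1471 and 1410.0 min and 819.5 and 957 min. Labelled values in mock were also low for HDAC7, 1.99 and 2.16, and for HDAC10, 2.35 and 2.37. The median of this small class is therefore uncertain too.

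The 3 demethylase-class mRNAs all lay below the median of all genes. JMJD1C, a member of the KDM3 family, had 438 and 487 min. JMJD6, a JmjC oxygenase, had 457 and 538 min, and JMJD8, a JmjC-domain protein of the endoplasmic reticulum, had 578 and 626 min. Counting PHF2 and PHF8 with them changed the class: PHF2 had 809 and 973 min and PHF8 1636 and 1769 min, which moved its median to 602 min.

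The methyltransferases held the shortest-lived and some of the longest-lived chromatin mRNAs. SETD1B, an enzyme of the COMPASS type that methylates histone H3, had 119 and 134 min, and its paralogue SETD1A had 273 and 275 min. SUV39H1, which makes the H3 methylation of heterochromatin, had 152 and 149.6 min, against 495 and 639.9 min for SUV39H2. MLL5 (now KMT2E) had 159.6 and 169 min. At the other end, EZH2, the catalytic subunit of Polycomb repressive complex 2, had 1513 and 1827 min. SETDB1, an H3 methyltransferase that silences retroelements, lay between at 957 and 989 min. The columns of SUV39H1 and SUV39H2, close paralogues, did not overlap.

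Readers had the lowest median of the 5 main classes by the deposited half-lives. With recomputed half-lives their ratio to the median of all genes, 0.707, lay above those of methyltransferases (0.639) and demethylases (0.534). Of the readers, 12 of 25 (48.0%) lay in the shortest-lived 25% of all genes. The families differed: medians were 382 min for the 6 BRD genes and 393 min for the 4 ING genes. The 15 PHF genes, most of the class, had a median of 775 min, close to the 777 min of all genes. PHF23 had 136 and 139 min and ING1, a reader in SIN3 deacetylase complexes, 140.2 and 138 min. The BET proteins bind acetylated histones through paired bromodomains: BRD2 had 152 and 169.7 min and BRD3 406 and 443 min. The ING genes followed in the order ING1, ING3 (316 and 325 min), ING4 (424 and 508 min) and ING5 (597 and 778 min). The long-lived readers were PHF8, PHF20L1 (1262 and 1364 min), PHF6 (1326 and 1278 min) and PHF14 (1318 and 1179 min).

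**Figure D2:**
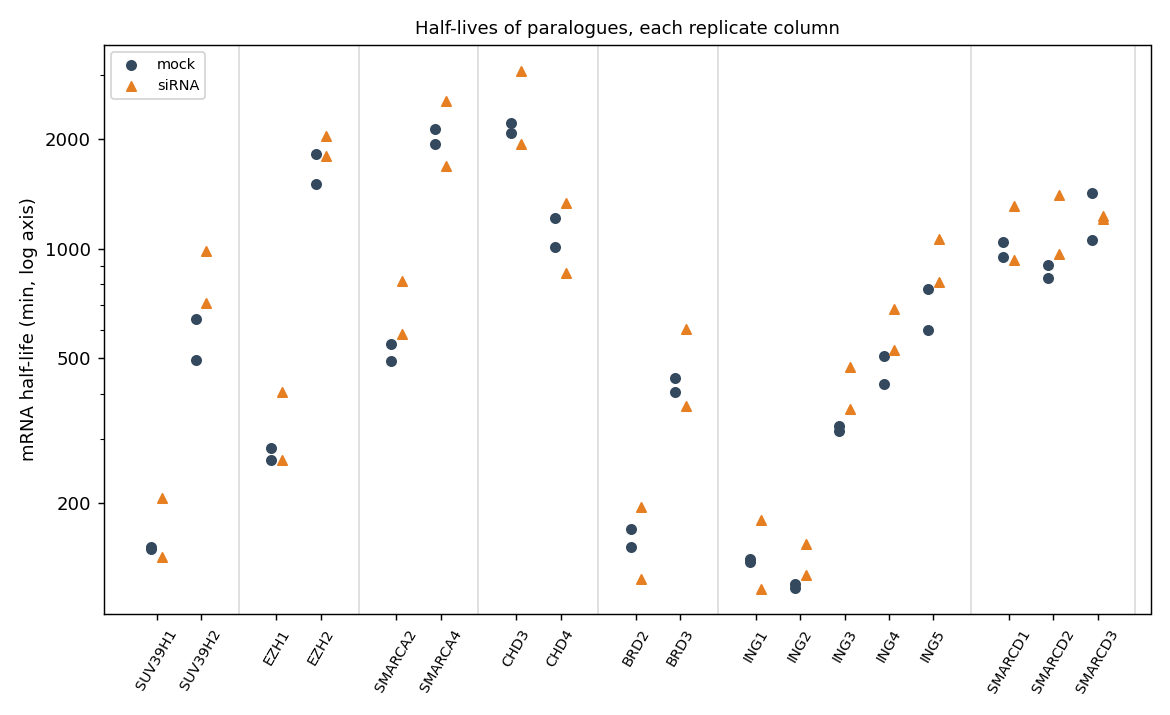
Mock and siRNA half-lives (min, log axis) in paralogue sets of SUV39H, EZH, SWI/SNF ATPase, NuRD ATPase, BET, ING and SMARCD genes; circles (mock) and triangles (siRNA, uncentred) are the single columns, and EZH1 and ING2 lie below the expression minimum. SMARCA4 (1944 and 2133 min in mock) sits above SMARCA2, CHD3 above CHD4, and SUV39H2 above SUV39H1.

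The MLLT and other ARID genes spread widely. MLLT3 (AF9), a YEATS-domain reader of transcription elongation complexes, had 163 and 258 min, columns that lay further apart than those of most members. MLLT4 had 2986 and 1904 min, also far apart. ARID4B had 303 and 345 min and ARID3B 420.4 and 466 min.

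The Pumilio element is a sequence through which PUM proteins bind 3' untranslated regions (UTRs), and it is known for destabilising mRNAs. Written TGTANATA and searched on the transcript strand only, it was found in 27 of 71 members with an annotated 3' UTR (38.03%), against 29.7% of 6001 genes. Members with it had a median mock half-life of 437 min and those without it 753 min; over all genes the medians were 676 and 824 min. Of the 24 shortest-lived members 14 held the element, of the 23 in the middle 4, and of the 24 longest-lived 9, so the share did not fall steadily. The UTRs that held it were longer (median 2345 against 1758 bases in members), and the part of length was not tested. The sites of 4 of the shortest-lived members are shown from GENCODE v29 with the element in capitals, because these mRNAs carry 2 or 3 copies each. As many copies were found in some longer-lived members, 3 in HDAC2 and 2 each in MLLT4, PHF20L1 and SMARCA5, while ING1 and SUV39H1, among the shortest-lived, had 0.
SETD1B site 1: gaaccaacttcTGTATATAgaggctgccgc
SETD1B site 2: cagaggaggcgTGTAAATAatttctggaaa
SETD1B site 3: gtgtgtcttgaTGTAAATAtttgttcatat
PHF23 site 1: taaaactctagTGTAAATAttagcactccc
PHF23 site 2: agcctgcgtgtTGTAAATAaagcagagtgg
MLL5 site 1: tcctgacaaacTGTAAATActgcatttctt
MLL5 site 2: atatatagcatTGTACATAtgacaagtctt
PHF12 site 1: tttggattttgTGTAAATAcatctagtgat
PHF12 site 2: accagtaccaaTGTACATAgtaattgtaat
PHF12 site 3: ttcctgtattcTGTATATAaaaaacaaaaa
Within the UTR these begin at bases 1285, 1444 and 2316 of 2345 in SETD1B, 330 and 563 of 598 in PHF23, 530 and 595 of 752 in MLL5, and 4493, 4707 and 4758 of 4782 in PHF12. PHF12, a partner of SIN3, had half-lives of 169 and 175 min.

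AU-rich elements are another class of destabilising sequence. The simplest form, ATTTA, was present in 77.5% of members and 74.0% of all genes, with member medians of 509 min with it and 1054 min without it (16 genes). Over all genes the medians were 745 and 889 min. The members' UTRs that held it were longer (median 2152 against 1121 bases), and the part of length was not tested. The stricter ATTTATTTA, which overlaps ATTTA, was in 3 of 71 members (4.23%) and 7.48% of genes. All 3, CHD6, ARID4B and PHF3, were among the 24 shortest-lived members. Their sites are shown with the element in capitals.
CHD6 site 1: attttgcattATTTATTTAtgatgctttt
CHD6 site 2: aatcaatataATTTATTTAtgtaagaaaa
ARID4B: atatttttccATTTATTTAtgaaaaaata
PHF3: tcaaatctaaATTTATTTAaaccctaaaa
A match is a run of letters in an annotated UTR and was not tested for binding.

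After MOV10 siRNA the half-life of no chromatin mRNA passed the threshold of change. Changes are log2 differences, siRNA minus mock, after each column was centred on its median gene, and were tested with limma at a Benjamini-Hochberg adjusted p of 0.05 over 6064 genes. Where mock and siRNA columns are said not to overlap, these are the columns the test used, so it adds no support to a call. Of 72 members 0 were longer-lived and 0 shorter-lived, where 1.88% and 4.27% of all genes were called. At an unadjusted p under 0.05, 14 members passed (19.4%), against 24.3% of all genes. The median change of members was -0.01, with a range from -0.54 to 0.49. Centring matters for the raw values, since the uncentred shift of the median gene was 0.20. That shift rested on siRNA replicate 2, whose all-gene median of 1030 min exceeded both mock medians (742 and 810 min). The median of siRNA replicate 1, 764 min, lay between the mock medians. Medians recomputed from the fractions, over all 7682 genes, showed no rise: 504 and 533 min (siRNA) against 533 and 587 min (mock). No general lengthening of half-lives is therefore read from the shift.

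The deacetylases held both ends of that range. HDAC6 had 2880.5 and 2563 min (mock) against 1741 and 2633 min (siRNA), a change of -0.54 (SE 0.14, adjusted p = 0.0674). Its labelled values, 1.14 and 1.45 (mock) against 1.91 and 1.53 (siRNA), lay near the lowest value of any column, 1.00. HDAC8 had 838 and 825 min (mock) against 1074 and 1652 min (siRNA), a change of 0.49 (SE 0.11, adjusted p = 0.0506). In these deposited values both HDAC8 siRNA columns lay above both mock columns, while for HDAC6 1 of the 2 siRNA columns lay between the mock columns. In centred values neither gene's columns overlapped. SUV420H2, which methylates histone H4, had 347 and 346 min (mock) against 261 and 344 min (siRNA) and a change of -0.41 (SE 0.092, adjusted p = 0.0524). With half-lives recomputed from the fractions the same limma test called 1 member longer-lived (HDAC8) and 2 shorter-lived (SUV420H2 and HDAC6). The share of all genes called with recomputed half-lives is not given here, so these counts have no background beside them.

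Among remodellers the largest change was that of CHD7, 0.27 (SE 0.095, adjusted p = 0.149), among readers that of PHF10, 0.32 (SE 0.14, adjusted p = 0.21), and among demethylases that of JMJD6, -0.093 (SE 0.090, adjusted p = 0.564). MLLT4 had a change of 0.40 (SE 0.24, adjusted p = 0.349) and ARID3B one of 0.27 (SE 0.084, adjusted p = 0.108). SUV39H2 stood at 0.38 (SE 0.11, adjusted p = 0.0898), its paralogue SUV39H1 at -0.0084 (SE 0.10, adjusted p = 0.974). None of these passed limma's threshold. Median changes were -0.25 for deacetylases (6 genes), -0.062 for remodellers, -0.092 for demethylases, -0.0048 for methyltransferases and 0.068 for readers, against 0.0026 for all genes.

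Total RNA of a few chromatin genes changed, and SWI/SNF subunits were found on both sides. Of 72 members 8 rose (11.1%) and 3 fell (4.17%), where 12.9% of all genes rose and 14.3% fell. SMARCA2, the BRM ATPase, had total RNA values of 8.93 and 9.68 (mock) against 13.4 and 13.5 (siRNA), a change of 0.51 (SE 0.081, adjusted p = 0.000443). SMARCD3, a SWI/SNF accessory subunit, had 9.82 and 11.02 (mock) against 6.93 and 8.08 (siRNA), a change of -0.41 (SE 0.095, adjusted p = 0.00644). Its paralogue SMARCD2 rose, with 47.95 and 51.4 (mock) against 58.1 and 56.8 (siRNA) and a change of 0.23 (SE 0.065, adjusted p = 0.0199). The core scaffold SMARCC2 fell, with 23.4 and 25.1 (mock) against 20.6 and 19.4 (siRNA) and a change of -0.25 (SE 0.073, adjusted p = 0.0232). None of these 4 genes had overlapping mock and siRNA columns. SMARCA4, at 0.17 (SE 0.074, adjusted p = 0.104), and SMARCB1, at -0.11 (SE 0.071, adjusted p = 0.285), did not pass. These are bulk values, in which fewer cells and less RNA per cell cannot be told apart.

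Outside SWI/SNF, CHD2 and CHD7 also rose in total RNA. CHD7 had 5.57 and 5.77 (mock) against 7.37 and 6.91 (siRNA), a change of 0.31 (SE 0.092, adjusted p = 0.0242), and CHD2 12.2 and 12.004 (mock) against 15.1 and 13.9 (siRNA), a change of 0.26 (SE 0.082, adjusted p = 0.0321). MLL5 had 11.6 and 10.6 (mock) against 14.6 and 14.3 (siRNA) and changed by 0.37 (SE 0.087, adjusted p = 0.00649), the largest rise outside SWI/SNF. MLLT3 had 5.62 and 7.24 (mock) against 8.72 and 7.97 (siRNA) and changed by 0.36 (SE 0.10, adjusted p = 0.0177). The readers PHF10, a subunit of the PBAF form of SWI/SNF, and BRD3 rose by 0.26 and 0.23 (adjusted p = 0.0153 and 0.0308, limma). PHF1, a Polycomb-like partner of EZH2, fell, with 8.76 and 9.42 (mock) against 6.82 and 7.56 (siRNA) and a change of -0.28 (SE 0.091, adjusted p = 0.0332). No deacetylase or demethylase passed in total RNA, and HDAC2, at -0.10 (SE 0.063, adjusted p = 0.247), and EZH2, at 0.059 (SE 0.067, adjusted p = 0.557), did not pass. Without centring the same test called 3 members higher and 3 lower. Without siRNA replicate 1 it called 2 higher and 0 lower, without siRNA replicate 2 it called 3 higher, and without mock replicate 2 it called 4 higher and 1 lower.

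Among the members' newly made RNAs the called changes were all upward. In 4sU-labelled RNA 15 of 72 members rose (20.8%) and 0 fell, where 9.88% of all genes rose and 11.5% fell. At an unadjusted p under 0.05, 23 members passed (31.9%), against 35.1% of all genes. The members' median change was 0.08, and that of all genes 0.00. Remodellers made up 7 of the 15 (CHD2, CHD4, CHD6, CHD8, SMARCA2, SMARCA4 and SMARCA5), out of 16 tested. All 7 encode an ATPase. The other ATPases, CHD3, CHD7 and SMARCA1, and the 6 accessory subunits, SMARCB1, SMARCC2, SMARCD1, SMARCD2, SMARCD3 and ARID2, did not pass. That split was seen in the data and was not tested. Readers gave 4 (PHF3, PHF23, BRD3 and BRD7), methyltransferases 2 (SETDB1 and MLL5), deacetylases 1 (HDAC2) and other ARID proteins 1 (ARID4B). Median labelled changes were 0.35 for the 6 CHD genes, 0.17 for the 9 SMARC genes, 0.074 for methyltransferases, 0.052 for readers and -0.0077 for deacetylases.

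CHD2 rose most, with labelled values of 18.2 and 18.2 (mock) against 30.3 and 27.6 (siRNA), a change of 0.50 (SE 0.085, adjusted p = 0.00257). PHF3, which binds RNA polymerase II, had 12.9 and 12.5 (mock) against 17.8 and 19.7 (siRNA), a change of 0.39 (SE 0.083, adjusted p = 0.00762). SETDB1 had 10.7 and 11.003 (mock) against 16.2 and 15.6 (siRNA), a change of 0.37 (SE 0.084, adjusted p = 0.0104). In these 3 genes every siRNA column lay above every mock column, and the same held for the other 12 in centred values. The calls were made on these same columns, so this is a description only. ARID4B, PHF23 and CHD6 changed by 0.37, 0.36 and 0.35 (limma, adjusted p = 0.00946, 0.00903 and 0.0206). CHD8 had 10.01 and 9.18 (mock) against 13.6 and 14.1 (siRNA), a change of 0.35 (SE 0.080, adjusted p = 0.0112), and CHD4 had 19.7 and 17.6 (mock) against 27.1 and 25.6 (siRNA), a change of 0.34 (SE 0.081, adjusted p = 0.0122). CHD3, the alternative to CHD4 in NuRD, stood at -0.0045 (SE 0.11, adjusted p = 0.979). SMARCA2 and SMARCA4 changed by 0.35 and 0.28 (limma, adjusted p = 0.0121 and 0.0324). Without centring, which adds the median gene's shift of 0.14, 27 members rose and 0 fell. That shift lifts genes at large too, and the share of all genes called without centring is not given here. Without mock replicate 1 or without siRNA replicate 1, 1 member was called lower, MLLT4 and MLLT1 in turn, named after their values were seen.

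**Figure D3:**
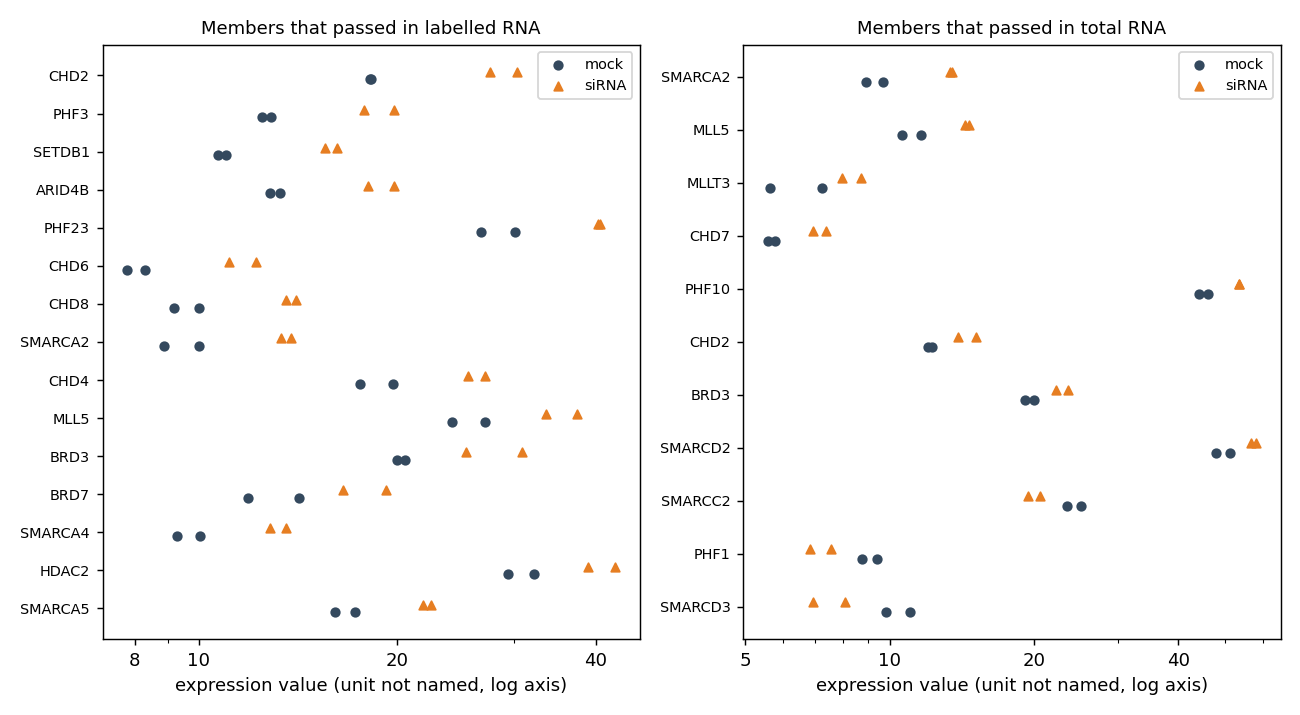
Values in each column (unit not named, log axis) for the members that passed in labelled RNA (15 genes) and in total RNA (11 genes); circles are mock and triangles siRNA, uncentred. All 15 labelled risers have both siRNA points above both mock points, and SMARCC2, PHF1 and SMARCD3 have them below in total RNA.

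In the flow-through, which holds mainly RNA made before the label, the balance of calls was also upward. Of 72 members 34 rose (47.2%) and 8 fell (11.1%), where 31.7% of all genes rose and 26.8% fell. The median change was 0.17 for members and 0.03 for all genes. SMARCA2 rose most, with 13.1 and 12.4 (mock) against 19.5 and 20.3 (siRNA) and a change of 0.62 (SE 0.055, adjusted p = 0.000485). MLLT3 and CHD7 changed by 0.56 and 0.56, and BRD7, a PBAF subunit, by 0.52 (limma, adjusted p = 0.00558, 0.00154 and 0.000623). The 8 that fell were HDAC7, SUV420H2, MLLT1, SMARCD3, BRD2, PHF1, SMARCD1 and JMJD8. HDAC7 had 8.93 and 8.96 (mock) against 6.51 and 6.30 (siRNA), a change of -0.41 (SE 0.066, adjusted p = 0.00321). BRD2, with 184 and 190.4 (mock) against 152 and 167 (siRNA), changed by -0.21 (SE 0.049, adjusted p = 0.0116), in the opposite direction to its paralogue BRD3, at 0.33 (SE 0.051, adjusted p = 0.00276). Without mock replicate 1 the counts were 22 higher and 5 lower, and without mock replicate 2 4 members fell.

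Readers made up 15 of the 34 flow-through risers, out of 25 tested, and remodellers 8 of 16. Methyltransferases gave 6 of 15, MLLT genes 2 of 5, other ARID proteins 2 of 2, deacetylases 1 of 6 (HDAC8) and demethylases 0 of 3. Median flow-through changes were 0.23 for readers, 0.18 for remodellers, 0.066 for methyltransferases and -0.15 for deacetylases. EZH2 had 69.5 and 68.2 (mock) against 81.7 and 82.6 (siRNA), a change of 0.27 (SE 0.037, adjusted p = 0.00182), with no overlap of its columns. SETD5, a SET-domain protein mutated in intellectual disability, had 25.1 and 27.6 (mock) against 35.6 and 33.9 (siRNA), a change of 0.40 (SE 0.066, adjusted p = 0.00347). Among ING genes, ING4 and ING5, readers of the HBO1 acetyltransferase complex, rose by 0.31 and 0.23, while ING1, at -0.27, and ING3, at 0.12, did not pass (limma, adjusted p = 0.00292, 0.0425, 0.0507 and 0.0613). BRD9, of the non-canonical SWI/SNF complex, rose by 0.23 (adjusted p = 0.0352, limma).

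The fractions come from the same cells and are not independent, so their calls are set side by side only. All 8 members that rose in total RNA rose in the flow-through, and 12 of the 15 labelled risers did. Of all genes 31.7% rose in the flow-through. The matching overlaps over all genes are not given here, so these counts are not a result about the members. BRD3, CHD2, MLL5 and SMARCA2 rose in labelled, flow-through and total RNA. CHD4, CHD6 and CHD8 had labelled changes of 0.34, 0.35 and 0.35, and flow-through changes of 0.17, 0.19 and 0.20. Whether a gene's change differed between labelled and flow-through RNA was tested with an interaction term. That fit took the columns of both fractions as independent and gave them a common variance. Its p-values therefore do not account for the shared cells. The authors computed the half-lives from these fractions, so this test and the half-life test are not independent. By the interaction test 1 member (SUV420H2) changed more upward in labelled RNA and 2 (HDAC8 and SUV39H2) less, where 5.92% and 4.47% of all genes were called. The half-life changes of these genes, -0.41, 0.49 and 0.38 in that order, had the opposite signs and did not pass.

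**Figure D4:**
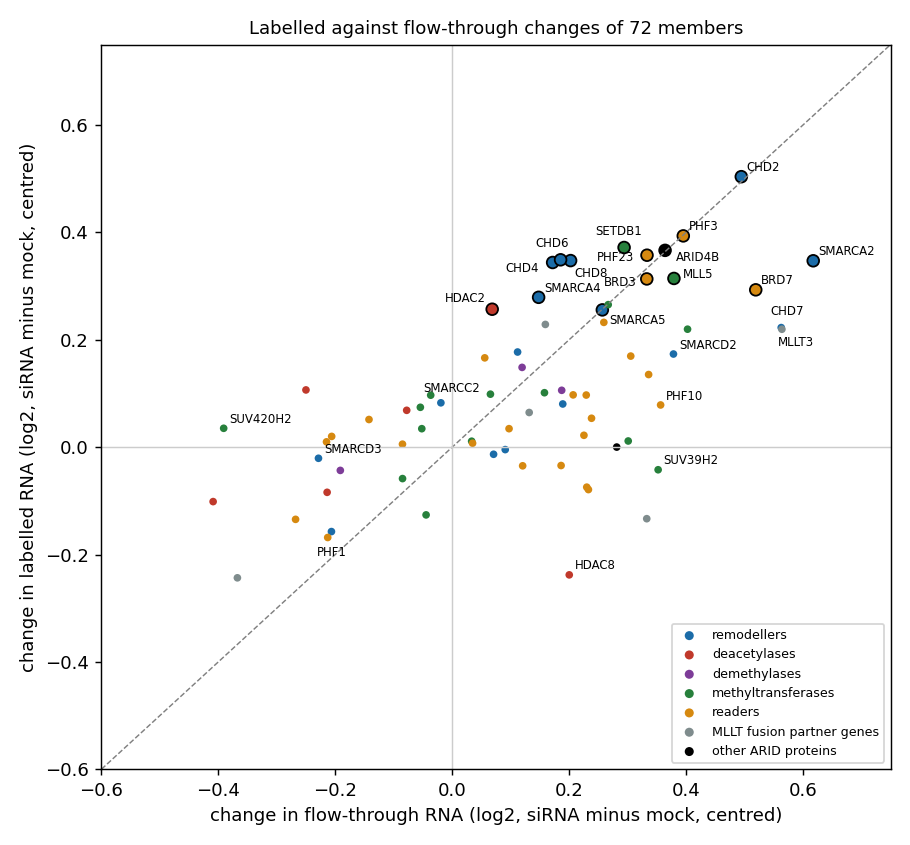
Change in labelled against change in flow-through RNA (log2, siRNA minus mock, centred) for 72 members, coloured by class; large outlined points are the 15 that rose in labelled RNA and the dashed line marks equal changes. HDAC8 and SUV39H2 lie below the line and SUV420H2 above it, the 3 genes whose changes differed by the interaction test.

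HDAC8 had labelled values of 6.85 and 7.35 (mock) against 6.71 and 6.38 (siRNA) and flow-through values of 18.3 and 18.7 (mock) against 20.4 and 21.99 (siRNA), and its labelled minus its flow-through change was -0.44 (SE 0.11, adjusted p = 0.0337). For SUV39H2 the difference was -0.39 (SE 0.10, adjusted p = 0.0365), with labelled values of 16.9 and 15.2 (mock) against 16.8 and 17.5 (siRNA) and flow-through values of 23.8 and 26.8 (mock) against 31.4 and 32.9 (siRNA). SUV420H2 went the other way, with a difference of 0.43 (SE 0.094, adjusted p = 0.0216), labelled values of 9.44 and 9.39 (mock) against 10.96 and 10.5 (siRNA) and flow-through values of 12.7 and 12.2 (mock) against 9.23 and 9.05 (siRNA). None of these 3 genes passed when any single column was left out. Without centring 7 members passed upward and 0 downward, and the differences of HDAC8 and SUV39H2, -0.29 and -0.24, no longer passed.

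Some genes that work with these proteins under other names had shorter half-lives after MOV10 siRNA. From 9 lists of partner genes, 168 were in the table and 154 were past the minimum. Of these 0 were longer-lived and 10 shorter-lived (6.49%, against 4.27% of all genes, limma). They included HAT1, RCOR1, YEATS4, DPF1, ASF1B, ATF7IP, ACTR8, BCL7A and PAXIP1. By list, SWI/SNF subunits outside the name rule gave 2 of 7, ISWI and INO80/SRCAP/TIP60 genes 2 of 19, deacetylase partners 1 of 28, and histone acetyltransferases and partners 1 of 13. Methyltransferases and COMPASS partners gave 2 of 22, DNA methylation and heterochromatin genes 1 of 13, histone chaperones 1 of 18, Polycomb genes 0 of 21, and TFIID and BET partners 0 of 13.

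HAT1, an acetyltransferase of new histone H4, had 647 and 684 min (mock) against 389.6 and 478 min (siRNA), a change of -0.82 (SE 0.092, adjusted p = 0.00807). RCOR1, the CoREST scaffold that joins HDAC2 to a demethylase, had 507 and 571 min (mock) against 307 and 403 min (siRNA), a change of -0.81 (SE 0.085, adjusted p = 0.00678). YEATS4 (GAS41), a histone reader, had 445 and 463 min (mock) against 281 and 370.4 min (siRNA), a change of -0.69 (SE 0.087, adjusted p = 0.0105). DPF1, a neuronal SWI/SNF subunit, had 598 and 653 min (mock) against 369 and 503 min (siRNA), a change of -0.73 (SE 0.084, adjusted p = 0.00846). For each of these 4 genes the siRNA half-lives were both shorter than either mock half-life. Their total RNA also fell, and HAT1 had 38.9 and 35.2 (mock) against 19.8 and 20.5 (siRNA). In total RNA 20 partner genes rose (12.99%, against 12.9% of all genes) and 28 fell (18.2%, against 14.3%). In labelled RNA 20 rose (12.99%, against 9.88%) and 8 fell (5.19%, against 11.5%). In the flow-through 51 rose (33.1%, against 31.7%) and 38 fell (24.7%, against 26.8%).

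The sequence TACTGCA was found in earlier work on these same half-lives, so its presence supports nothing here and is only described. It was in the 3' UTR of 7 of the 10 shorter-lived partner genes, of 11 of 71 members (15.5%) and of 11.5% of all genes, on the transcript strand. Members with it had a median half-life change of -0.17 and those without it -0.01; over all genes the medians were -0.06 and 0.01. The sites of 4 partner genes and of 3 members are shown with TACTGCA in capitals.
HAT1: ttctgaaatacTACTGCAattgcttccct
YEATS4: agaaatggactTACTGCAaatgctgtgat
RCOR1: caaagatcattTACTGCAactgtcgttgg
DPF1: cccacggtggaTACTGCAtgatgtgaacc
HDAC2 site 1: cctgtttctttTACTGCAtttacatggca
HDAC2 site 2: aagatggcagaTACTGCAtttaaaatttt
HDAC6: tttggtgtggcTACTGCAggggagcagag
BRD2: gagggaaatatTACTGCAgtgagaaaagg
Of the members shown, HDAC2 had a half-life change of -0.27 (SE 0.099, adjusted p = 0.158), HDAC6 of -0.54 and BRD2 of -0.24 (SE 0.11, adjusted p = 0.237), none past limma's threshold. The other 8 members with the sequence ranged from -0.26 (CHD6) to 0.30 (SETD3, an actin methyltransferase), with PHF12 at -0.25, SMARCC2 at -0.17, ARID4B at -0.069, SMARCA1 at -0.014, MLL5 at 0.00058 and PHF14 at 0.074.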

How the data were processed

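Poly(A)+ RNA of 6 samples (total, 4sU-labelled and flow-through, mock and MOV10 siRNA) was sequenced for 100 cycles, per the labels' protocols. TopHat2 2.06 and hg18 are named in the submitters' processing notes. How expression was quantified is not stated in what was used here. Deposited were, in 1 table, 12 columns of an expression signal per gene, of unnamed unit and normalization, and 4 half-life columns that the authors computed. The other unit, that of the deposited half-lives, is also unnamed. It was taken as min because half-lives recomputed from the 3 fractions with exponential decay over 60 min had medians of similar size. Pearson correlations of log2 values over genes were 0.970, 0.968, 0.982 and 0.974. These would be the same in any unit, so they do not bear on that choice. The deposited and recomputed medians over all 7682 genes were 657 and 533, 713 and 587, 668 and 504, and 900.0 and 533 min, so the absolute values depend on the method. All values are 1.00 or more. The depth is unknown and no counting interval is given.

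Log2(value + 1) of the signal, and log2 of the half-life, were centred on the median gene of each column and fitted with limma 3.58.1 (R 4.3.3, mean-variance trend), 2 siRNA against 2 mock columns, over 6064 genes with mean total RNA of 5 or more in both. P-values were adjusted by Benjamini-Hochberg at 0.05. Fold changes on that scale understate changes of low values. The interaction fit used the labelled and flow-through columns together, as independent and with a common variance, so fractions from the same cells were not paired. The procedure was tested on simulated data. Classes were set by name. Members, lists and tests were chosen with earlier results of these data known. Named members were those past the threshold (the 6 largest in labelled RNA and interaction, 8 each way in total RNA), the 5 longest and shortest half-lives, per class the largest half-life change and highest total RNA, fixed paralogue sets, and members below the minimum. Partner genes were named for the largest fall of each list. Other genes named to complete a family or a count were chosen after their values were seen. Longest annotated 3' UTRs of at least 20 bases came from GENCODE v29, matched by symbol for 71 of 72 members (6001 of 6064 genes). Its build is not the authors', so no coordinates are given. The short sequences were chosen with the data known. Some genes' own values are not reported here. Alternatives were a pseudocount of 0.1, a minimum of 20, no minimum, no centring, a replicate block, recomputed half-lives, other classes and leaving out each column.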

Additional observations from a re-analysis of the deposited data

Results flagged for a closer look

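In 3 members the change after MOV10 siRNA differed between labelled and flow-through RNA by the interaction test (limma, Benjamini-Hochberg adjusted). Fractions from the same cells were not paired in that fit, so its p-values are to be read with caution. Members were called less often than genes at large, 1.39% upward and 2.78% downward against 5.92% and 4.47% of all genes. The authors' half-lives come from the same fractions, so this test is not independent of the half-life test. HDAC8, a class I deacetylase, had a labelled change of -0.24 and a flow-through change of 0.20, a difference of -0.44 (SE 0.11, adjusted p = 0.0337). SUV39H2, an H3 methyltransferase of heterochromatin, had -0.042 and 0.35, a difference of -0.39 (SE 0.10, adjusted p = 0.0365). SUV420H2, an H4 methyltransferase, had 0.035 and -0.39, a difference of 0.43 (SE 0.094, adjusted p = 0.0216). Without centring the HDAC8 and SUV39H2 differences were -0.29 and -0.24 and no longer passed, and none of the 3 passed when any single column was left out.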

How the results depend on the processing

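Of 71 calls of a member in a comparison, none reversed in any of the alternatives run, and 33 stayed past the threshold in each one. Over 665 gene and alternative combinations, 547 stayed on the same side and 118 lost the call. The replicate numbers of the columns did not pair them (correlations of same-numbered deviations -0.04, 0.02, -0.03 and 0.09 in half-life, total, labelled and flow-through RNA). With a replicate block 13 members rose and 6 fell in total RNA, 17 rose and 0 fell in labelled RNA, 36 rose and 11 fell in the flow-through, and 1 and 2 passed in the interaction. With a minimum of 20, which left 24 members, 3 rose and 1 fell in total RNA, 2 rose in labelled RNA, 12 rose and 4 fell in the flow-through, and 0 and 1 passed in the interaction. Without centring 3 rose in total RNA, 27 rose in labelled RNA, and 7 and 0 passed in the interaction. Recomputed half-lives gave 1 longer-lived and 2 shorter-lived member. For this and the other alternatives, the shares of all genes called are not given here, so the member counts have no background beside them. Leaving out each column in turn gave 2 to 9 risers and 0 to 3 fallers in total RNA, 10 to 12 and 0 to 1 in labelled RNA, 22 to 31 and 4 to 9 in the flow-through, and 0 and 0 to 1 in the interaction. The ratio of a class's median half-life to that of all genes, 0.783 for all members, was 0.753 with recomputed half-lives, 0.852 with no minimum and 0.782 to 0.790 without a mock column. With recomputed half-lives it was 1.17 for remodellers (reported 1.26), 0.435 for other ARID proteins (0.494), 1.37 for deacetylases (1.498), 0.534 for demethylases (0.640) and 0.707 for readers (0.600), so readers no longer had the lowest of the 5 main classes. With no minimum these were 1.42, 0.524, 1.39, 0.801 and 0.649, with 1.20 for MLLT genes (1.06) and 0.746 for methyltransferases (0.658). With PHF2 and PHF8 moved the demethylases gave 0.775. Without a mock column the range was 1.46 to 1.51 for deacetylases and 0.667 to 0.734 for methyltransferases. Depth is unknown, so its limit on these values could not be stated.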

Other observations

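Partner genes outside the name rule are described by list in the RNA fractions, from limma counts and with no test of a list. Of all 6064 genes 12.9% rose and 14.3% fell in total RNA, 9.88% and 11.5% in labelled RNA, and 31.7% and 26.8% in the flow-through. Among 18 histone chaperones, which hand histones to DNA and remove them, 8 rose and 0 fell in labelled RNA (ANP32B, CHAF1A, HIRA, NASP, NPM1, SET, SUPT16H and SUPT6H), with a median change of 0.21. In the flow-through 10 of them rose and 2 fell, and their median mock half-life was 1054 min. Among 22 methyltransferases and COMPASS partners, 0 rose and 6 fell in total RNA: CXXC1, EHMT2, PAXIP1, PRMT1, PRMT5 and SMYD2. Among 21 Polycomb genes, 7 rose and 3 fell in total RNA. The 7 included EED and SUZ12, the partners of EZH2, and BMI1. In labelled RNA 1 Polycomb gene rose and 3 fell. Of 28 deacetylase partners, 3 rose and 6 fell in total RNA, the 6 including MBD3 and MTA2 of the NuRD complex. These genes were named after their values were seen.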
